A study of Homo sapiens with 3 samples.

Results

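The genes described are 9 markers and lineage factors of neuroendocrine cells, out of 27024 genes counted in 22Rv1 WT cells. The genes were chosen by symbol: the granule proteins CHGA, CHGB and SCG2, the vesicle protein SYP, the enzyme ENO2, the adhesion molecule NCAM1 and the transcription factors NEUROD1, INSM1 and POU3F2. All 9 were found, each under its Ensembl gene identifier, and the row of CHGA, which stood under 2 identifiers with the same values, was counted once. 22Rv1 is a cell line long established from a human prostate carcinoma. The cells came from ATCC and were grown in RPMI1640 with fetal bovine serum. The study used these cells to ask how an enhancer that carries a prostate cancer risk variant acts on drug resistance and neuroendocrine differentiation. WT cells keep that enhancer intact and carry the non-risk base. The study's text calls its WT samples control clones in one place and biological replicates in another, so the spread between the 3 libraries may be between clones or between cultures.

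Neuroendocrine cells store peptide hormones and amines in dense-core granules and release them when calcium rises. Granins such as chromogranin A (CHGA), chromogranin B (CHGB) and secretogranin II (SCG2) are acidic proteins that fill these granules, while synaptophysin (SYP) sits in the membrane of small synaptic-like vesicles. In the embryo and in tumors, the program is set up by transcription factors, among them the zinc-finger factor INSM1, the basic helix-loop-helix factor NEUROD1 and the POU-domain factor POU3F2, also known as BRN2. The repressor REST keeps many neuronal genes off in other tissues, and the splicing factor SRRM4 can turn its transcript into a form that represses poorly. In prostate cancer, adenocarcinoma cells under long hormone therapy may take on these markers, and pathologists stain for SYP, CHGA and NCAM1 (CD56) to recognise such tumors.

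The promoters of 5 of the 9 genes are shown, namely those with a window in the promoter set used. They are the expressed markers CHGA, SYP and ENO2, the expressed factor POU3F2, and NEUROD1, which had no reads. Each sequence holds the 110 bases just before the transcription start in the RefSeq annotation of GRCh38.p14, read 5′ to 3′ on the gene's strand. Capitals mark matches on either strand to TGACGTCA (the cAMP response element), CANNTG (the E-box), GGGCGG (the GC box) and TATATAA. The common TATA box, TATAAA, and the RE1 element that REST binds were also searched and had no match in these 5 windows. Over all windows, 11.5% held TATAAA and 0.0683% held RE1, so most windows have no match. Sites outside the windows were not searched, so the absence of a match does not show that a gene lacks RE1.
CHGA: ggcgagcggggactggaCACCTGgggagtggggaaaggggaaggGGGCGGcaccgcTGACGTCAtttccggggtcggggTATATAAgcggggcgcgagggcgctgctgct
SYP: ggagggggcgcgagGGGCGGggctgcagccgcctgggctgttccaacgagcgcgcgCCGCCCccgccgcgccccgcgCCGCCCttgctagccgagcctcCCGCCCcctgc
ENO2: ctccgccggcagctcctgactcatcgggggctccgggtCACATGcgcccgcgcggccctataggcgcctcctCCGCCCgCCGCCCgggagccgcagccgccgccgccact
NEUROD1: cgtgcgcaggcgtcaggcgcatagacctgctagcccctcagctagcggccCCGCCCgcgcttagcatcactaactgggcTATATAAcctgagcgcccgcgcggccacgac
POU3F2: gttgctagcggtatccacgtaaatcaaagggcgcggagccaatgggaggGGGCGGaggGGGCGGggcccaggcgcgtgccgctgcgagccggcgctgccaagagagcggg

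These stretches lie at chr14:92923040-92923149 on the plus strand for CHGA, chrX:49200194-49200303 on the minus strand for SYP, chr12:6914470-6914579 on the plus strand for ENO2, chr2:181680518-181680627 on the minus strand for NEUROD1 and chr6:98834464-98834573 on the plus strand for POU3F2. CHGA was the one promoter of the 5 with a full cAMP response element, at -54 to -47 from the start, and with an E-box, a GC box and a TATATAA match as well. A full cAMP response element was found in 1.85% of all 35116 promoter windows of 300 bases, and in 1.24% of the stretches that correspond to those shown. TATATAA stood at -31 to -25 in both CHGA, which was expressed, and NEUROD1, which was not, and 1.19% of all such stretches held it. This last motif was searched after the sequences had been seen. SYP had 4 GC boxes in the stretch shown and no other match, ENO2 and POU3F2 had 2 each, and 32.7% of all stretches held at least 1. The E-box of ENO2 is of a kind found in 34.7% of all stretches. The 5 windows of 300 bases were between 68.3% (POU3F2) and 75.0% (ENO2) G and C, against a median of 58.7% over all windows. A match is a string of letters and was not tested for binding. CHGB, SCG2, NCAM1 and INSM1 are named only.

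The 3 libraries held 38252744, 35675670 and 38629080 reads on genes, recovered from the normalized counts in the files. A normalized count is the number of reads of a gene divided by 1 scale factor per library. These factors were 1.27, 1.18 and 1.27, so 3 reads, taken here as the limit for a count of 0, correspond to between 2.36 and 2.54 normalized counts in a library. A gene was called expressed if each of the 3 libraries reached 1 CPM, a unit of reads scaled by library size. Before TMM adjusts the sizes, 1 CPM is between 35.7 and 38.6 reads in a library. Of the 9 genes, 6 were expressed, namely ENO2, SYP, CHGB, CHGA, SCG2 and POU3F2, and 3 were not, namely NCAM1, NEUROD1 and INSM1. Over all counted genes 47.7% were expressed, and over protein-coding genes 63.8%, so 6 of 9 is near the background and the result lies in which genes these were. The 3 granule proteins, the vesicle protein and the enzyme were all expressed, and of the 3 transcription factors POU3F2 alone was. In bulk RNA, fewer cells of a type and less RNA per cell cannot be told apart, so a low level may be that of a few cells or of all cells.

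CHGA, the granin that is most used as a serum and tissue marker, lies on chromosome 14 (GRCh37, 93389495 to 93401630, plus strand, 8 exons). It was at 116.1, 107.5 and 125.2 normalized counts in replicates 1 to 3, from 147, 127 and 159 reads. The mean was 116 ± 8.85 normalized counts (SD, n = 3). All 3 libraries were thus well above the 1 CPM used to call a gene expressed, the lowest being at 3.56 CPM. CHGB, a second granin, which helps granules to form, lies on chromosome 20 (5892156 to 5905999, plus strand, 5 exons). It had 719.0, 745.5 and 740.8 normalized counts, from 910, 881 and 941 reads. Its 3 values lay within 1.04-fold of each other, and no CHGB value came near any CHGA value. SCG2, the precursor of the peptide secretoneurin, lies on chromosome 2 (224461658 to 224467079, minus strand, 2 exons). SCG2 was at 116.9, 124.4 and 144.1 normalized counts, from 148, 147 and 183 reads. Replicate 3 was the highest for both CHGA and SCG2, while CHGB was highest in replicate 2.

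Reads rise with the length of a transcript, so genes are set against each other per kilobase of 1 canonical transcript. CHGA was at 58.6 ± 4.46 normalized counts per kilobase, CHGB at 299 ± 5.74 and SCG2 at 52.8 ± 5.77 (SD, n = 3 each). Within a library, CHGB was 5.12 ± 0.424 times CHGA and 5.70 ± 0.537 times SCG2 per kilobase, and the lowest of the 3 ratios to CHGA was 4.77. With all annotated exons merged in place of 1 transcript, a length chosen for ratios after the data had been seen, CHGB was 4.32 times CHGA and 3.34 times SCG2. CHGA and SCG2 overlapped in their range over libraries, although the ratio of SCG2 to CHGA within a library stayed between 0.821 and 0.944. Among the 12821 expressed genes with a transcript length, 48.3% lay below CHGB per kilobase, but 15.2% lay below CHGA and 14.1% below SCG2. CHGB was therefore a gene of middling level in these cells, and CHGA and SCG2 were in the lower part of the expressed genes.

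SYP encodes a membrane protein that is among the most abundant proteins of synaptic vesicles. It lies on chromosome X (49044268 to 49056677, minus strand, 7 exons), and 0.975% of its exon bases are shared with the antisense gene SYP-AS1, whose reads could not be told apart if counting ignored strand. SYP was at 3564.0, 3488.2 and 3468.7 normalized counts, from 4511, 4122 and 4406 reads. Its mean was 3507 ± 50.3 normalized counts, or 1449 ± 20.8 per kilobase (SD, n = 3), and 86.7% of expressed genes lay below it. Its SD was 1.44% of its mean, the smallest of the 6 expressed genes. SYP was 24.8 ± 1.97 times CHGA and 4.85 ± 0.162 times CHGB per kilobase within a library, with no overlap between libraries. With all annotated exons merged, which makes SYP longer than its canonical transcript, these ratios were 13.1 and 3.04 and 76.6% of expressed genes lay below SYP.

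ENO2, or neuron-specific enolase, is an enzyme of glycolysis whose name understates how widely it is made, since many other cells also hold some. It lies on chromosome 12 (7022909 to 7032861, plus strand, 12 exons). ENO2 was at 6830.9, 6609.2 and 6909.8 normalized counts, from 8646, 7810 and 8777 reads, and was lowest in replicate 2. Its mean was 6783 ± 156 normalized counts, or 2957 ± 67.9 per kilobase, and 93.9% of expressed genes lay below it. It was the most abundant of the 9 genes, at 2.04 ± 0.0539 times SYP per kilobase within a library (3.15 with merged exons), and the lowest ENO2 value lay above the highest SYP value.

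NCAM1, the cell adhesion molecule known as CD56, lies on chromosome 11 (112831997 to 113149158, plus strand, 22 exons). It had 3 reads in replicate 1, 1 in replicate 2 and 0 in replicate 3, that is 2.4, 0.8 and 0.0 normalized counts. The sum of 4 reads has an exact 95% Poisson interval of 1.09 to 10.2 reads, which covers counting error only. Of its exon bases, 7.89% are shared with antisense transcripts, so these few reads may belong to either strand. NCAM1 was thus at the limit of detection.

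POU3F2 has 1 exon and lies on chromosome 6 (99282450 to 99287334, plus strand). It was at 209.4, 261.5 and 224.4 normalized counts, from 265, 309 and 285 reads, with replicate 2 the highest. The mean was 232 ± 26.8 normalized counts, or 47.4 ± 5.49 per kilobase (SD, n = 3), and 12.7% of expressed genes lay below it. Its range overlapped that of SCG2 per kilobase. NEUROD1 (chromosome 2, 182533022 to 182545554, minus strand, 2 exons) and INSM1 (chromosome 20, 20348748 to 20351593, plus strand, 1 exon) had 0 reads in all 3 libraries. A count of 0 allows up to 0.0777 to 0.0841 CPM in a library, taken over its total reads. Taking 3 reads over the libraries together as that limit, POU3F2 was at least 146-fold higher than NEUROD1 and at least 167-fold higher than INSM1 per kilobase. CHGA was at least 181-fold higher than NEUROD1 and at least 207-fold higher than INSM1, and for SYP the bounds were 4476-fold and 5109-fold. With all annotated exons merged, the bound against INSM1 was 136-fold for CHGA and 1773-fold for SYP, and the other bounds were as high or higher. NEUROD1 and INSM1 were therefore not detectable at this depth, in RNA that held reads of SYP, ENO2 and the 3 granins. Of the exon bases of NEUROD1, 2.88% are shared with CERKL.

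Per kilobase, the order of the 9 genes was ENO2, SYP, CHGB, CHGA, SCG2, POU3F2 and NCAM1, followed by NEUROD1 and INSM1 at 0. The libraries set ENO2 apart from SYP, SYP from CHGB, CHGB from CHGA, and POU3F2 from NCAM1. They did not set CHGA apart from SCG2 or SCG2 apart from POU3F2, nor NCAM1 from NEUROD1. Among the 9 genes, the places of CHGA, SCG2 and POU3F2 also rest on the length used. With all annotated exons merged, CHGA came to 38.4 normalized counts per kilobase and fell behind SCG2 (49.9) and POU3F2 (47.4). The median of all expressed genes was 315 normalized counts per kilobase, which is close to CHGB.

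**Figure D1:**
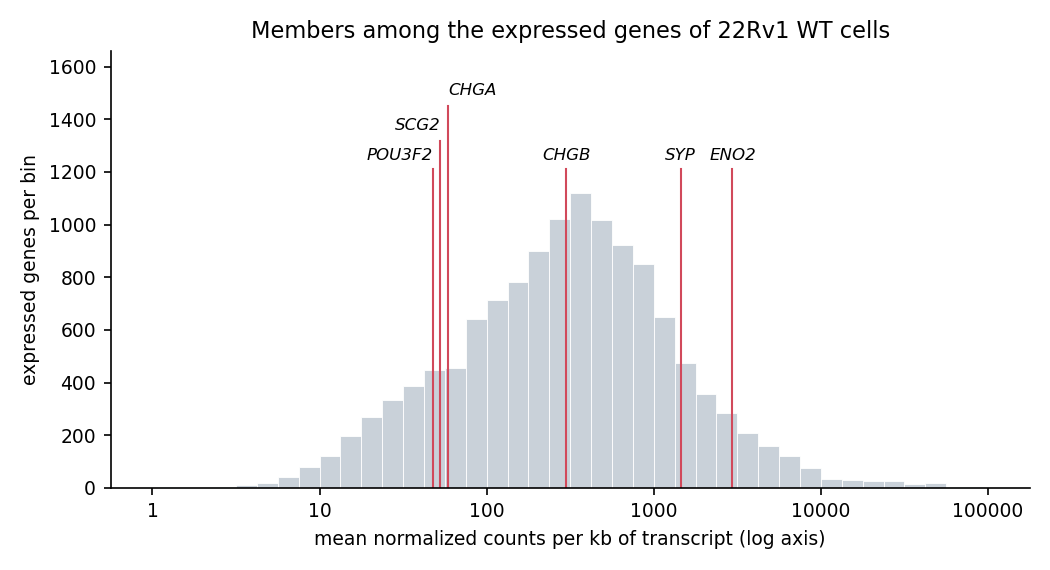
Histogram of the mean normalized counts per kilobase (horizontal axis, logarithmic) of the 12821 expressed genes with a transcript length, with the number of genes per bin on the vertical axis. Red lines mark the 6 expressed genes: CHGA, SCG2 and POU3F2 stand on the left shoulder, CHGB near the middle, and SYP and ENO2 on the right.

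The closest relatives of the 9 genes show whether a family had another member in use. These families were drawn up after the values had been seen. VGF, a granule protein that is cut into neuropeptides, was the most abundant of 6 granins and partners, with 46172, 40709 and 46637 reads and 14066 ± 488 normalized counts per kilobase. It held 93.0 ± 0.285% of the family's summed level per kilobase, against 1.98% for CHGB, 0.387% for CHGA and 0.349% for SCG2. VGF was 241 ± 11.1 times CHGA, 47.1 ± 2.27 times CHGB and 9.71 ± 0.336 times SYP within a library, and 99.1% of expressed genes lay below it. With merged exons the ratio to CHGB was 81.0 and that to SYP 26.6. SCG3, which binds CHGA in the granule membrane, was at 646 ± 32.5 normalized counts per kilobase, 11.1 ± 1.23 times CHGA (16.8 with merged exons). SCG5, the chaperone of the prohormone convertase PCSK2, was listed at 0 reads. However, 51.9% of its exon bases are shared with a readthrough gene and an antisense gene, and counting can drop reads that fall in 2 genes, so its level is uncertain.

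SYP made up 62.0 ± 0.909% of its family's summed level per kilobase of canonical transcript. Its ubiquitous relative SYPL1 was at 795 ± 31.5 normalized counts per kilobase and SYPL2 at 92.9 ± 9.49, while SYNPR, or synaptoporin, had 0 reads. SYP was thus 1.82 ± 0.0965 times SYPL1 within a library, but with all annotated exons merged the order turned, to 0.864 times SYPL1 and 43.0% of the family. Among the enolases the order was different, with the housekeeping form ENO1 at 18333 ± 631 normalized counts per kilobase. ENO1 was 6.20 ± 0.0809 times ENO2 (3.95 with merged exons), and ENO2 was 27.6 ± 1.39 times the muscle form ENO3 (43.6). ENO2 made up 13.8 ± 0.152% of the 3 enolases, and 20.1% with merged exons.

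For NCAM1, INSM1 and NEUROD1 the relatives differed from each other. NCAM2, the second neural cell adhesion molecule, had 1731, 1713 and 1725 reads and a level of 173 ± 6.26 normalized counts per kilobase, where NCAM1 had 4 reads in all. The ratio of NCAM2 to NCAM1 per kilobase was 935, with an exact interval of 365 to 3432 from counting error, and 1980 with merged exons. INSM2 had 34, 40 and 53 reads and did not reach 1 CPM in all 3 libraries, yet it was at least 41.7-fold higher than INSM1 per kilobase. In the NEUROD family no member was expressed, with 2, 1 and 0 reads for NEUROD2, 7, 3 and 4 for NEUROD4 and 0 for NEUROD6. In the POU3 family POU3F2 held 63.7 ± 1.01% of the summed level per kilobase and POU3F3, or BRN1, most of the rest. POU3F3 had 128, 135 and 156 reads, and POU3F2 was 1.88 ± 0.211 times POU3F3 per kilobase. POU3F1 had 5, 14 and 0 reads and POU3F4 had 0. However, 45.8% of the exon bases of POU3F4 are shared with other genes, so its level is uncertain, as for SCG5. The shares in this family take it as 0.

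Wider gene lists place the 9 genes in their pathways. Each list is described by its count of expressed genes and by its median level per kilobase. The median was 37.4 over all genes with a length, those that code for no protein included, and 315 over expressed genes. The share expressed was 47.7% over all counted genes and 63.8% over protein-coding genes. The counts for the granule, processing and synaptic vesicle lists (66.7%, 57.1% and 72.4%) are near that of protein-coding genes. Of 12 dense-core granule proteins 8 were expressed, with a median of 142 normalized counts per kilobase. The highest outside the 9 genes were VGF, PCSK1N (1530 ± 63.2), an inhibitor of prohormone convertases, and SCG3. CADPS had 0 reads, and SCG5 was listed at 0 with the limit given above. Of 7 prohormone processing enzymes 4 were expressed, with a median of 111. CPE, the carboxypeptidase that trims prohormones, was at 1216 ± 66.0 normalized counts per kilobase, FURIN at 524 ± 25.6 and CPD at 455 ± 19.5. PCSK1, the main convertase of many endocrine cells, had 18, 29 and 18 reads and did not reach 1 CPM in all 3 libraries, though it had more than 10 reads in each. The other neuroendocrine convertase, PCSK2, had 0 reads.

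The synaptic vesicle and exocytosis list, to which SYP belongs, had 21 of 29 genes expressed and a median of 253 normalized counts per kilobase. SYT4, a synaptotagmin of dense-core granules, led at 2649 ± 71.6 normalized counts per kilobase, followed by SYP, then by CPLX1 (1216 ± 49.6), a complexin that clamps fusion, and UNC13A (1186 ± 49.3), which primes vesicles. With merged exons SYP (503) fell behind CPLX1 (1094) and UNC13A (1059). The fusion proteins VAMP2 (1112 ± 35.1), STX1A (640 ± 29.5) and SNAP25 (339 ± 19.4) were also expressed, and they were named after their values were seen. With merged exons VAMP2 was at 697, STX1A at 365 and SNAP25 at 34.1, so the level of SNAP25 rests on the length used. The vesicular amine transporters SLC18A1 and SLC18A2 had at most 2 reads in a library. Of 16 neuronal adhesion, cytoskeleton and surface proteins 8 were expressed, with a median of 13.3, and NCAM1 was among those that were not. TUBB3, a neuronal tubulin, was at 2097 ± 63.4 normalized counts per kilobase (482 with merged exons), MAP2 at 250 ± 16.6 and NCAM2 next. Of 20 neuropeptides and enzymes of amine synthesis 6 were expressed, with a median of 1.59. GAL (galanin) was at 1044 ± 76.0 normalized counts per kilobase, DDC (aromatic amino acid decarboxylase) at 521 ± 36.1 and CALCB at 245 ± 16.8 (64.9 with merged exons). Of this list, 7 genes had 0 reads in all 3 libraries, namely GRP, SST, VIP, TAC1, POMC, PYY and TH, and VIP shares 20.6% of its exon bases with another gene.

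Of the lineage transcription factors 5 of 32 or 15.6% were expressed, with a median of 1.70 normalized counts per kilobase. They were ONECUT2, PAX6, POU3F2, ISL1 and POU3F3. ONECUT2, a cut-homeobox factor, had 4514, 4644 and 4064 reads and was at 217 ± 22.2 normalized counts per kilobase, 4.59 ± 0.426 times POU3F2 within a library. PAX6 was at 52.5 ± 7.12, near POU3F2, and ISL1 at 30.6 ± 6.25, but with merged exons PAX6 was at 6.98, below ISL1 (26.0). No reads were counted for 8 of the 32, including NEUROD1 and INSM1, and 18 of the 32 had a mean under 10 reads. Among the 8, POU3F4 shares 45.8% and POU4F1 27.7% of its exon bases with other genes, so their levels are uncertain. FOXA2 had 1, 15 and 1 reads, SOX2 had 1, 14 and 16, and MYCN had 47, 29 and 25. The reads of FOXA2 came almost wholly from replicate 2 and those of SOX2 from replicates 2 and 3, so neither has a level that holds over the libraries. The count for this list depended on the threshold: 10 of 32 reached 0.5 CPM and 13 of 32 reached 10 reads in all 3 libraries, and NEUROD1 and INSM1 were in neither.

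All 14 genes of the REST complex and the neuronal splicing regulators were expressed, with a median of 465 normalized counts per kilobase. PTBP1 (5362 ± 88.4), which holds neuronal exons out, and HDAC1 (5292 ± 162) were the highest, in the reverse order with merged exons (2286 and 2826). SRRM4, which favors neuronal exons, came next at 1253 ± 60.4 normalized counts per kilobase, from 13162, 13163 and 12909 reads. REST itself had 4184, 4296 and 4261 reads and was at 470 ± 24.4. Within a library, SRRM4 was thus 2.67 ± 0.0518 times REST (2.37 with merged exons). REST was 9.94 ± 0.631 times POU3F2 (7.73 with merged exons). A count per gene does not say which splice form of REST was made.

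The label of the cells was checked with markers of the prostate lumen and of other cell types. All 12 luminal markers were expressed, the keratins KRT8 (14104 ± 442 normalized counts per kilobase) and KRT18 (11672 ± 956) among them. With merged exons these keratins were at 3657 and 5374. The luminal markers were not all high: per kilobase of canonical transcript, KLK3 (233 ± 22.5) and ACP3 (84.9 ± 12.6) lay below the median of 315 over expressed genes. Of 11 stromal, immune and basal markers 4 were expressed, and endothelial cells were not checked, since the marker chosen for them had no row matched. LUM (60.1 ± 6.86), ACTA2 (51.1 ± 15.1) and COL1A1 (44.1 ± 2.91) were the highest of these, near the level of CHGA, SCG2 and POU3F2 per kilobase, though ACTA2 was at 12.3 with merged exons. The defining markers of T cells (CD3E) and basal cells (KRT5, KRT14 and TP63) had 0 reads, and PTPRC, the marker of leukocytes, had 1, 0 and 1. Another immune marker of the list, CD68, was expressed, with 101, 72 and 75 reads and 39.0 ± 6.74 normalized counts per kilobase. Summed over the list, these 11 genes came to between 541 and 646 normalized counts in a library, against 115488 to 117078 for the luminal markers. Their part in the levels of the 9 genes was not tested.

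With 1 group of samples, the one comparison the data allow is between the WT libraries themselves. The reads of each gene were tested by a chi-square test of homogeneity against the TMM library sizes, with Benjamini-Hochberg adjustment over the 14646 genes whose mean was 10 reads or more. By this test 41.9% of all genes tested differed between the libraries at an adjusted p under 0.05, so the libraries vary by more than the sampling of reads. Of the 9 genes, 6 had enough reads to be tested and 0 of them differed. At an unadjusted p under 0.05 there were 2, POU3F2 (p = 0.0216, adjusted p = 0.0513 by the chi-square test) and ENO2 (p = 0.0241, adjusted p = 0.0557). Both lay just above the threshold, and each passed it under some alternative: POU3F2 with another low-count filter, with either other scaling (adjusted p = 0.0484 to 0.0498) and without replicate 3 (0.0362), and ENO2 without replicate 1 (0.0379). The adjusted p by the chi-square test was 0.240 for SCG2, 0.431 for SYP, 0.551 for CHGA and 0.782 for CHGB. With edgeR's trended dispersion added to the variance of each count, 0.348% of all genes tested differed and again 0 of the 6 did, none of them at an unadjusted p under 0.05 either. By the chi-square test, with its background of 41.9%, 3 of 8 dense-core granule proteins with enough reads differed between the libraries. So did 9 of 21 synaptic vesicle genes and 4 of 14 lineage factors. The share was higher for luminal markers (9 of 12), processing enzymes (4 of 6) and REST complex and splicing genes (8 of 14). It was 4 of 8 for neuropeptides and amine enzymes, and 3 of 6 for stromal, immune and basal markers. For adhesion and cytoskeleton genes it was 4 of 12, and for enolases 1 of 3. With edgeR's dispersion added, 0 genes of the granule, synaptic vesicle and lineage lists differed, and 2 (ONECUT2 and NKX2-1) had an unadjusted p under 0.05. ONECUT2, lowest in replicate 3, had the smallest p of the lineage factors, with an adjusted p of 1.56e-19 by the chi-square test and of 0.205 with edgeR's dispersion.

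The size of the spread was measured as the SD in percent of the mean, which had a median of 5.56% over all genes tested. It was 1.44% for SYP, 1.92% for CHGB and 2.30% for ENO2, which were below that median. It was 7.61% for CHGA, 10.9% for SCG2 and 11.6% for POU3F2, which were above it and had the fewest reads of the 6. For POU3F2, replicate 2 lay 12.8% above the mean of the gene, with a 95% Poisson interval of 0.595% to 26.1% from its reads alone. For ENO2, replicate 2 deviated by -2.57% from the mean, with an interval of -4.72% to -0.381%. The intervals of the other 16 values, those of SYP, CHGB, CHGA and SCG2 in all 3 libraries among them, held 0. A difference of about the size of these intervals could not have been seen in CHGA or SCG2 at their 127 to 183 reads.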

How the data were processed

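Total RNA of 22Rv1 WT cells was sequenced in 3 libraries. Paired-end reads were aligned by the authors with HISAT2 to hg19 (GRCh37) under a GENCODE annotation. HTSeq gave the reads of each gene, and DESeq2 the normalization. The HISAT2 version, the GENCODE release and the strand setting are not given in the sources used here. The deposited signal is a read count over the size factor of its library, kept to 1 decimal. Dividing by the smallest step in each library returned whole reads, within that rounding, for 100% of values. Adjacent rows that were identical in all 3 libraries and not all at 0 were merged (1976 of 29000), since 1 gene can stand under several identifiers, which left 38252744, 35675670 and 38629080 reads. Symbols, positions and lengths came from GENCODE lifted to GRCh37, and 86.3% of 28760 identifiers had a symbol. Promoters came from RefSeq (GRCh38.p14), in windows from 250 bases before to 50 after the start, of which 5 of the 9 genes had 1.

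Library sizes were scaled by TMM (edgeR 4.0.16, R 4.3.3), and the chi-square test ran in scipy 1.17.1 with numpy 2.4.6 and pandas 2.3.3 after it had been tested on simulated data. Alternatives were other scalings (library totals, and DESeq2 1.42.0 size factors), thresholds, lengths and pseudocounts, leaving out each library, and an added dispersion. Ratios with merged exons were added after seeing the data. minimap2 2.31 found no other transcript at 98% identity over 50% of the length for any of the 9 genes. Figures were drawn with matplotlib 3.10.9. Intervals and floors cover counting error only, and p-values measure the spread between these 3 samples. The members and lists were chosen with earlier results of these data known. From each list the text names the 3 highest genes per kilobase that are no member, and in any case FOXA2, ONECUT2, SOX2, MYCN, REST, SRRM4 and ENO1. A few genes that the rule takes in are not reported here. Relatives, genes at 0 and other genes named were chosen after their values were seen. Libraries of other conditions were not used here.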

Additional observations from a re-analysis of the deposited data

How the results depend on the processing

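No paired analysis was possible because only 1 group was analysed. Of 126 values recomputed for levels, order and counts, 117 moved by no more than the spread of the libraries or, for counts, by no more than 1.5 times. The levels of the 9 genes did so under library totals, TMM and re-estimated DESeq2 size factors. They also did so without each library in turn, but leaving out 1 of 3 always moves a mean by no more than the SD. NCAM1, at 1.07 normalized counts, was at 0.4 without replicate 1 and is still among the 117. NEUROD1 and INSM1, at 0, could not move. The 6 genes stayed expressed at 0.5 CPM, at 10 reads, at 1 CPM in at least 1 library and without each library. Each of these rules is looser than the main one, so this was fixed in advance, and no stricter threshold was tried. In the order per kilobase 3 genes changed place with merged exons (CHGA, SCG2 and POU3F2) and 2 with no length (CHGA and POU3F2). With merged exons, an alternative chosen for ratios after seeing the data, 3 ratios per kilobase turned: SCG2 to CHGA was 1.30, SYP to SYPL1 0.864 and CHGA to POU3F2 0.820. Most of the other ratios did not turn but moved by more than their SD over the libraries. Of the lineage factors 10 were expressed at 0.5 CPM and 13 at 10 reads, against 5. Of the prohormone processing enzymes 5 were expressed at 0.5 CPM and 6 at 10 reads, against 4. By the chi-square test 1 gene (POU3F2) differed between libraries, against 0, with a minimum mean of 50 reads (adjusted p = 0.0498), with library totals (0.0495) and with DESeq2 size factors (0.0484). Leaving out 1 library gave 0 to 1 genes: ENO2 without replicate 1 (adjusted p = 0.0379) and POU3F2 without replicate 3 (0.0362), where only 2 libraries were compared. The log2 range of NCAM1, 1.77 with a pseudocount of 1, was 4.64 with 0.1 and 0.31 with 10. The cause of these changes was not tested. At 0 to 3 reads a library, the depth sets only an upper limit for NCAM1, NEUROD1 and INSM1.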
